A study of Homo sapiens with 12 samples.

Results

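The genes described here are 45 genes of the cell division cycle, listed by symbol: 14 of DNA replication, 8 cyclins, 6 cyclin-dependent kinases (CDKs) and CDC25 phosphatases, 14 of mitosis and 3 CDK inhibitors. Their probes were found on an Illumina bead array by the symbol or Entrez gene identifier of each probe. They numbered 68 of 47227 probes and 45 of 30505 genes with an identifier. CDK1 is listed on the array as CDC2 and CDC45 as CDC45L. Of the 45 genes, 44 could be tested. CDKN2C, an inhibitor of CDK4 and CDK6, was detected on no array by any of its probes and was left out of every test.

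A dividing cell copies its DNA in S phase and separates the copies in mitosis. Cyclins switch on their CDK partners in turn: D cyclins with CDK4 and CDK6 in G1, E cyclins with CDK2 at the entry to S phase, A and B cyclins with CDK2 and CDK1 up to mitosis, and the inhibitors of the p21 and p27 kind hold these kinases back. Replication genes are known targets of E2F factors, and many mitotic genes are known targets of the DREAM and MuvB complexes with B-MYB and FOXM1, so that both sets are read as signs of cycling cells. Human embryonic stem cells are known for a short G1 phase, which lengthens as they differentiate.

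The cells were of H9, an established human embryonic stem cell line. The study concerned LHX2, a homeobox transcription factor known for its roles in the developing forebrain and eye. For overexpression, H9 carried an LHX2 construct driven by doxycycline. Dox-plus cells had 3 days of the drug and dox-minus cells had none, and RNA was taken at day 4 and day 16, which is 1 and 13 days after the drug ended. In the knockdown arm H9 carried a short hairpin RNA against LHX2 (shLHX2) or against luciferase (shLuc), with RNA taken at 12 days of neural induction. The 6 groups held 2 arrays each, called biological duplicates in the series text. That text lists a GFP control for overexpression, but every dox-minus and dox-plus label names LHX2 cells, so an effect of doxycycline itself and one of LHX2 cannot be told apart.

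The arrays detected 19050 to 20489 probes each. With 2 arrays a group, all values are of limited precision. A level below is the normalized log2 signal of a gene's brightest probe. Levels of different genes come from different probes and are not compared. Changes are log2 fold changes ± standard error from 1 limma fit over all 12 arrays, with Benjamini-Hochberg adjustment over 15650 genes, with a call meaning an adjusted p below 0.05. LHX2 itself differed by -2.03 ± 0.27 in shLHX2 against shLuc cells (limma adjusted p = 0.00592), by 0.86 ± 0.27 in dox-plus against dox-minus cells at day 16 (limma adjusted p = 0.0581) and by at least 1.05-fold at day 4 (limma adjusted p = 0.272). In bulk RNA, fewer cycling cells and less of a transcript in each cell cannot be told apart. Scaling by array medians, in place of quantile normalization, moved the median of all genes by over 0.1 in 4 comparisons: to 0.15 for dox-plus against dox-minus at day 4, -0.13 for shLHX2 against shLuc, -0.12 for dox-plus day 16 against day 4 and -0.15 for the change in dox effect between the days.

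Nearly all of these genes were well detected in every group. Of the 44 genes, 43 were detected on all 12 arrays. The exception was CCNE2, a cyclin of S-phase entry, which was detected on 8 arrays and stayed near the detection limit. Among the replication genes, the helicase subunit MCM3 ran from 12.93 to 13.83 over the 12 arrays and the licensing factor CDC6 from 5.75 to 6.91. CDC6 was detected on all 12 arrays, but it too stayed near the detection limit. Among the mitotic genes, TOP2A, the topoisomerase that untangles replicated DNA, had the widest range, from 10.12 to 12.17. CDKN1A, which encodes the CDK inhibitor p21, had the widest range of all, from 9.88 to 13.55.

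**Figure D1:**
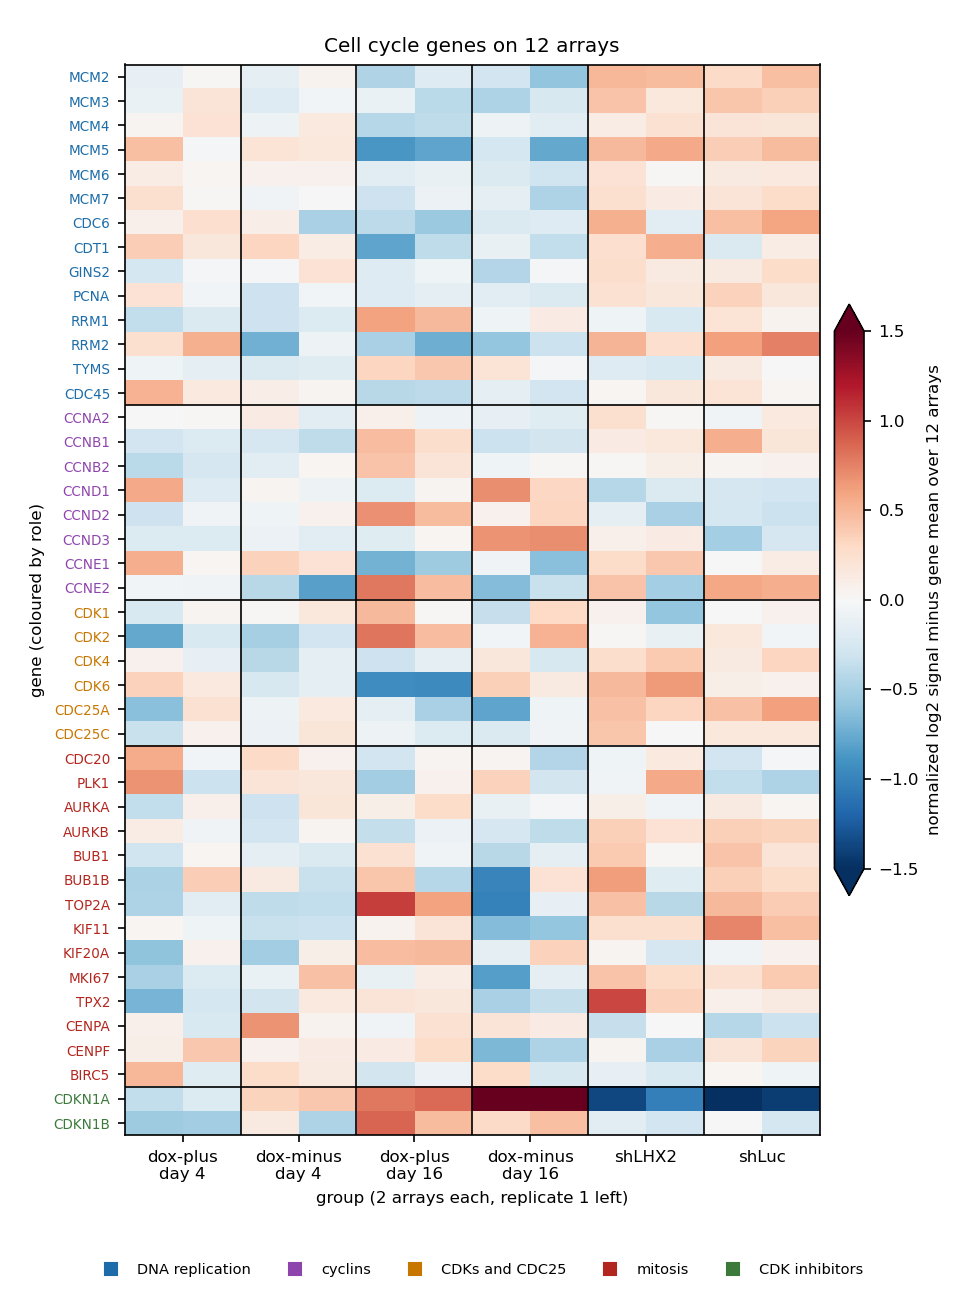
Normalized log2 signal of 44 cell cycle genes on 12 arrays, each as its difference from the gene's own mean; columns are arrays in 6 groups and rows are genes by role. CDKN1A runs past the colour scale, with 13.51 and 13.55 in dox-minus day 16 cells, and CDK6 is lowest in dox-plus day 16 cells, at 8.12 and 8.09.

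The promoters of the replication and the mitotic genes differed in their motifs, as far as letters in the sequence show. RefSeq windows of 300 bases on GRCh38.p14, from 250 before to 50 after the transcript start, were at hand for 36 of the 45 genes. Searched on both strands were 4 forms of the E2F site (TTTCCCGC, TTTCGCGC, TTTGCCGC and TTTGGCGC), 2 forms of the CHR element bound by MuvB complexes (TTTGAA and TTCGAA), and CCAAT, the letters of the NF-Y box. No form is contained in a form of another motif. An E2F form stood in 9 of 12 replication promoters, 1 of 11 mitotic promoters and 3.33% of all 27305 promoters. A CHR form stood in 9 of 11 mitotic promoters, 2 of 12 replication promoters and 16.6% of all. CHR and CCAAT stood together in 8 of 11 mitotic promoters and 6.58% of all. Among cyclins, 0 of 5 promoters held an E2F form and 1 of 5 a CHR form. Among kinases and phosphatases the counts were 2 of 5 and 1 of 5, and among CDK inhibitors 0 of 3 for each. A match is a description of the letters and not a binding site, and no match says only that these letters are not in this window.

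**Figure D2:**
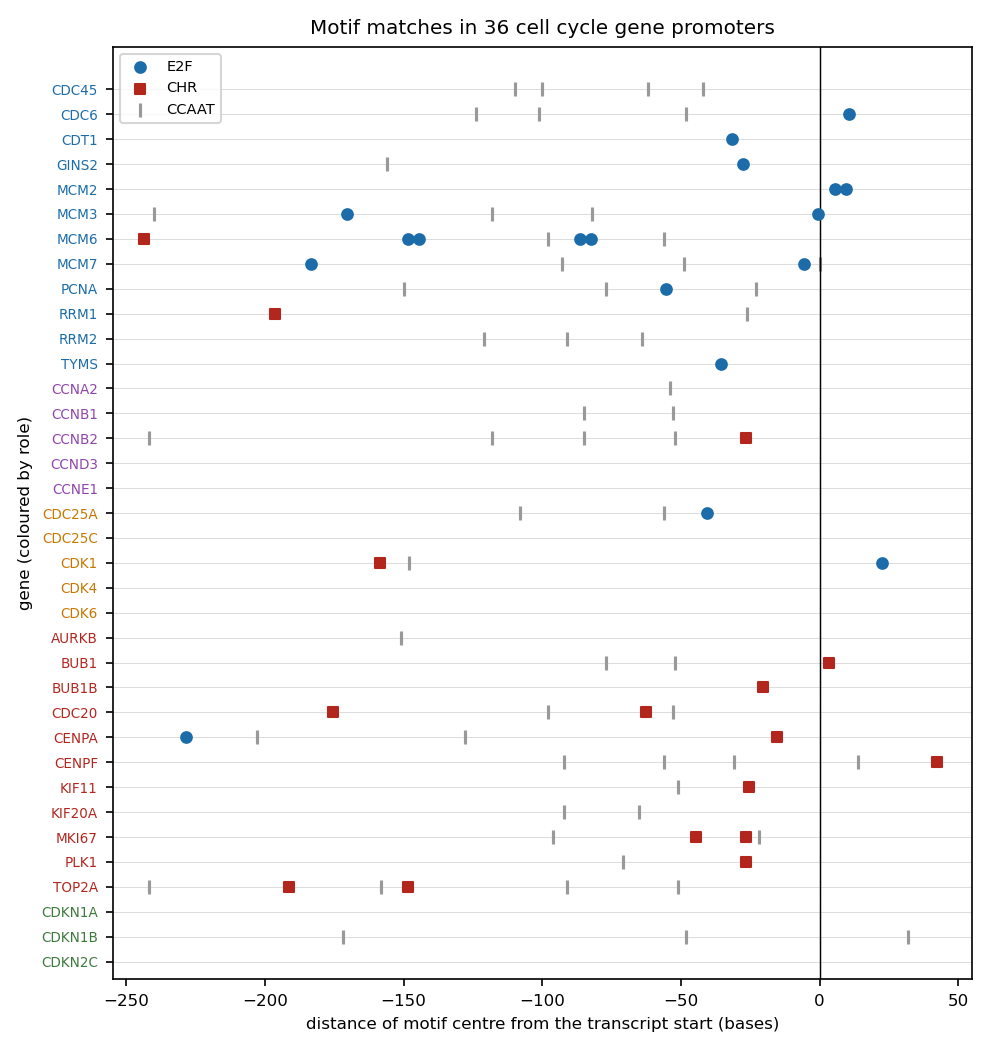
Positions of E2F (circles), CHR (squares) and CCAAT (ticks) matches in 36 promoters, as the distance in bases of the motif's centre from the transcript start; genes are grouped by role. E2F matches lie in 9 of 12 replication promoters and CHR matches in 9 of 11 mitotic promoters.

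Sequences are given for 6 of the genes in the results below. At day 16, the signals of TOP2A, CENPF and CCNB1 in dox-plus cells exceeded those in dox-minus cells. CDK6 and CDKN1A had the opposite order on that day. CDT1 was 1 of 5 replication genes that fell with time in dox-plus cells. The promoters of these 6 genes are shown. Each is given 5′ to 3′ on the strand of the gene, with motif matches in capitals. The windows are chr17:40417847-40418146 (minus strand) for TOP2A, chr1:214602945-214603244 (plus strand) for CENPF, chr5:69166900-69167199 (plus strand) for CCNB1, chr16:88803539-88803838 (plus strand) for CDT1, chr7:92836524-92836823 (minus strand) for CDK6 and chr6:36678464-36678763 (plus strand) for CDKN1A.
TOP2A: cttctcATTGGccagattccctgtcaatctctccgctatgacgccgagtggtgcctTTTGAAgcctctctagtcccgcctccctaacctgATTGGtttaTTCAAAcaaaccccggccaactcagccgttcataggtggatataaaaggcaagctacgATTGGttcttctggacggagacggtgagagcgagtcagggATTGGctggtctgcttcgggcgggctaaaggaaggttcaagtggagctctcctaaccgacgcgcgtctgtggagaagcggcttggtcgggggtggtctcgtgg
CENPF: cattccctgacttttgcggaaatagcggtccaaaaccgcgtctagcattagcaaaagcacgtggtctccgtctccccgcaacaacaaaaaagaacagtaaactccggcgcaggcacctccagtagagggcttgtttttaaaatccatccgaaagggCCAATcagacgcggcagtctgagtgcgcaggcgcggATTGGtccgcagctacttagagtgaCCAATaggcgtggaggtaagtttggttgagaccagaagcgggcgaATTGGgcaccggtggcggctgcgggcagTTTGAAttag
CCNB1: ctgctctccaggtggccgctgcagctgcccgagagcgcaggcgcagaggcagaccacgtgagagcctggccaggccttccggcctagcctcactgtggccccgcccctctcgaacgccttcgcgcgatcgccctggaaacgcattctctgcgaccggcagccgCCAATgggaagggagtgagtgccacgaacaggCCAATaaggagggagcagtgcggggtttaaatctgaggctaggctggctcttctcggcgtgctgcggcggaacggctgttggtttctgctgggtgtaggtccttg
CDT1: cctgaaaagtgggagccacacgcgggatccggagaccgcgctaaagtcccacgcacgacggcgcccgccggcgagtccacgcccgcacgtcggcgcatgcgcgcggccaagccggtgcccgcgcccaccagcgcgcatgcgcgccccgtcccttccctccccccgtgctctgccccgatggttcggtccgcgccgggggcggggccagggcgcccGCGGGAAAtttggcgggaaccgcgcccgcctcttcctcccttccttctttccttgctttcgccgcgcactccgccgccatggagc
CDK6: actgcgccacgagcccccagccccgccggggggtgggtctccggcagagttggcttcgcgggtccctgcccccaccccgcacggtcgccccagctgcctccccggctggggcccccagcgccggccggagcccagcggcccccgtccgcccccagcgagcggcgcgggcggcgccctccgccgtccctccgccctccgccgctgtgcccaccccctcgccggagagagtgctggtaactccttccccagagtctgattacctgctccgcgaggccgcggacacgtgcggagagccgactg
CDKN1A: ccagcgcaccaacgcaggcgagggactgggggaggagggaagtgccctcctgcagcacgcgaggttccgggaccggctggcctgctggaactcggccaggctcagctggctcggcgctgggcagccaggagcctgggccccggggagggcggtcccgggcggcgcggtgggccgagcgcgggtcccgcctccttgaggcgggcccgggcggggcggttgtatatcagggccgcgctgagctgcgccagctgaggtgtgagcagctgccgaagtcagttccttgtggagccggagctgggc
TOP2A held 2 CHR and 4 CCAAT matches, CENPF 1 CHR and 4 CCAAT, CCNB1 2 CCAAT and CDT1 1 E2F match. CDK6 and CDKN1A held 0 matches of these motifs. Among genes not shown, CHR and CCAAT stood together in KIF11, which was called at day 16. They also stood together in CDC20, PLK1 and CENPA, which were not. Of the other replication genes called with time in dox-plus cells, RRM1, RRM2 and CDC45 held no E2F match. MCM4 and MCM5 had no promoter window. MCM2, MCM3, MCM6, MCM7, CDC6, GINS2, TYMS and PCNA held an E2F match and were called in no comparison. No link between motifs and changes was tested.

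At day 16, several mitotic genes rose in dox-plus relative to dox-minus cells, while CDKN1A and the G1 kinase CDK6 fell. The comparison is between cells given doxycycline early, to switch on the LHX2 construct, and cells given none, 13 days after the drug. LHX2 itself did not pass in this comparison or at day 4, as given above. Its mean level at day 16 was 12.91 in dox-plus and 12.06 in dox-minus cells, so both groups expressed it. In dox-minus cells that was at least 83.5-fold above day 4. At day 4 LHX2 was detected on 1 dox-plus array and 0 dox-minus arrays. Of 44 genes, 5 rose (TOP2A, CCNE2, CENPF, KIF11 and CCNB1) and 3 fell (CDK6, CDKN1A and CCND3), which is 18.2% against 13.7% of all genes tested. By direction, 6.08% of all genes rose and 7.64% fell. At an unadjusted p under 0.05 there were 11 genes, 25% of the set beside 28.8% of all genes, so the share was near the rate of all genes. The count rests on few arrays. Without dox-minus replicate 1 or without dox-plus replicate 1, 2 calls were left, CDK6 and CDKN1A, beside 7.57% and 5.8% of all genes, and without dox-plus replicate 2 there were 5 calls, beside 8.09% of all genes.

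Mitotic genes made up 3 of the 5 that rose. TOP2A read 12.17 and 11.74 in dox-plus cells, against 10.12 and 11.01 in dox-minus cells. Both dox-plus arrays lay above both dox-minus arrays, and the dox-minus arrays lay far apart. The difference was 1.39 ± 0.32 (limma adjusted p = 0.0133), and it lost its call without dox-minus replicate 1 (0.95, limma adjusted p = 0.111) and without dox-plus replicate 1 (1.17, limma adjusted p = 0.128). CENPF, a kinetochore protein of late G2 and mitosis, read 10.33 and 10.49 in dox-plus cells, against 9.54 and 9.75 in dox-minus cells. The groups did not overlap, and CENPF in dox-plus cells stood where both day 4 groups stood. The difference was 0.77 ± 0.21 (limma adjusted p = 0.0329), and it lost its call in 6 of 16 alternatives, median scaling and 3 of the 4 that leave out an array among them. KIF11, the kinesin that pushes spindle poles apart, read 9.59 and 9.73 in dox-plus cells, against 8.89 and 8.96 in dox-minus cells. Its replicates lay close together and the groups were well apart. The difference was 0.74 ± 0.18 (limma adjusted p = 0.0156), and its other kept probe gave 0.79 (adjusted p = 0.0404 in a limma fit over probes). The KIF11 call was lost in 4 of 16 alternatives: in a fit of these groups alone, without dox-minus replicate 1, without dox-plus replicate 1 and without dox-plus replicate 2 (limma adjusted p = 0.0967 in the last).

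The other 11 mitotic genes did not pass the test. TPX2, which activates Aurora A on the spindle, differed by 0.61 ± 0.25 (limma adjusted p = 0.128), and MKI67, which encodes the Ki-67 antigen, by 0.49 ± 0.26 (limma adjusted p = 0.232). BUB1B and BUB1, kinases of the spindle checkpoint, differed by 0.38 ± 0.43 and 0.38 ± 0.21. KIF20A, a kinesin of cytokinesis, differed by 0.36 ± 0.27 and AURKA, the spindle pole kinase Aurora A, by 0.24 ± 0.22. Values within 0.1 of no difference were those of CDC20, the activator of the anaphase-promoting complex (0.07 ± 0.25), AURKB, the kinase Aurora B (0.09 ± 0.19), and CENPA, the centromeric histone (-0.06 ± 0.24). PLK1, a mitotic kinase, gave -0.27 ± 0.34 and BIRC5, the Aurora B partner survivin, -0.20 ± 0.25. In all, 11 of 14 mitotic genes had a positive value under every scaling tried, with a median of 0.37, beside 0.02 over all genes. The replicates of dox-minus day 16 differed in these genes: BUB1B read 7.84 and 9.05, and MKI67 6.12 and 6.81.

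Cyclins moved both ways at day 16. CCNB1, the B cyclin that drives CDK1 into mitosis, read 10.76 and 10.56 in dox-plus cells, against 9.98 and 10.02 in dox-minus cells. The groups did not overlap. The difference was 0.66 ± 0.19 (limma adjusted p = 0.0344), but the call was lost in 9 of 16 alternatives, among them the one with the replicate number as a block (limma adjusted p = 0.0516). CCNE2 read 6.78 and 6.45 in dox-plus cells, against 5.34 and 5.65 in dox-minus cells. It was detected on both dox-plus arrays and on 1 of the 2 dox-minus arrays. The difference was 1.12 ± 0.28 (limma adjusted p = 0.0208), and it lost its call without dox-minus replicate 1 (limma adjusted p = 0.118) and without dox-plus replicate 1 (limma adjusted p = 0.171).

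CCND3, a G1 cyclin of CDK4 and CDK6, read 9.86 and 10.08 in dox-plus cells, against 10.72 and 10.75 in dox-minus cells. The dox-minus arrays nearly coincided, and both stood above all other arrays of the series. The difference was -0.76 ± 0.18 (limma adjusted p = 0.0136). The call was lost without dox-minus replicate 1 (limma adjusted p = 0.0556), without dox-plus replicate 1 (limma adjusted p = 0.136) and in a fit of these groups alone (limma adjusted p = 0.093). The other D cyclins did not pass: CCND1 gave -0.59 ± 0.25 and CCND2 0.39 ± 0.20. CCNB2 and CCNA2, of mitosis and of S phase, gave 0.33 ± 0.18 and 0.16 ± 0.19. The probes of CCNE1, the other E cyclin, disagreed. The brightest gave -0.28, another -0.75 (adjusted p = 0.0369 over probes) and a further one 0.58, so no direction is given for this gene.

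CDK6, the G1 kinase partner of D cyclins, had the smallest adjusted p of the set at day 16. It read 8.12 and 8.09 in dox-plus cells at day 16, against 9.41 and 9.18 in dox-minus cells. Both dox-plus arrays were the lowest of the series. The difference was -1.19 ± 0.18 (limma adjusted p = 0.000941), and CDK6 kept its call in 16 of 16 alternatives. The other kinases and phosphatases did not pass: CDK2 gave 0.39 ± 0.25, CDK1 0.27 ± 0.27, CDK4 -0.19 ± 0.20, CDC25A 0.11 ± 0.30 and CDC25C 0.00 ± 0.21.

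CDKN1A read 12.43 and 12.49 in dox-plus cells, against 13.51 and 13.55 in dox-minus cells. Each group's arrays lay close together, and these 4 arrays were the highest of the series. The difference was -1.07 ± 0.19 (limma adjusted p = 0.00305), and it kept its call in 16 of 16 alternatives. CDKN1B, which encodes the inhibitor p27, gave 0.31 ± 0.23 and did not pass.

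**Figure D3:**
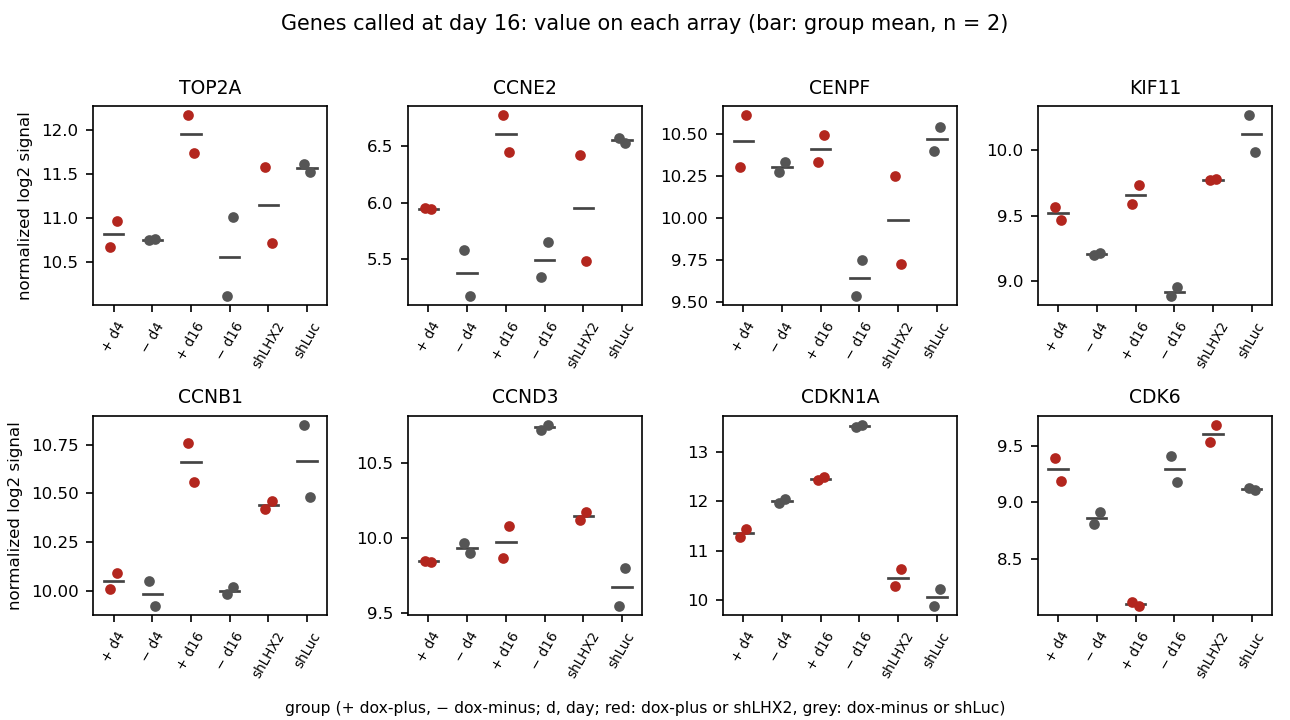
Normalized log2 signal on each array (points) with group means (bars, n = 2) for the 8 genes called in dox-plus against dox-minus cells at day 16, in 6 groups; each panel has its own axis. CDK6 lies near 8.1 on both dox-plus day 16 arrays only, and CDKN1A is highest on the dox-minus day 16 arrays, at 13.51 and 13.55.

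Of 14 replication genes, 0 were called by limma at day 16, beside 13.7% of all genes. RRM1 alone had an unadjusted p under 0.05. No test was made between the replication and the mitotic genes. Of the 14, 8 had a positive and 6 a negative value, with a median of 0.06. Under median scaling the split was 7 and 7 and the median -2e-04. RRM1, the large subunit of ribonucleotide reductase, differed by 0.52 ± 0.18 (limma adjusted p = 0.0776). The helicase subunits MCM2, MCM3, MCM6 and MCM7 gave values from 0.10 to 0.12, and MCM4 and MCM5 gave -0.30 ± 0.17 and -0.31 ± 0.22. For MCM7 a dimmer probe gave 0.80 (adjusted p = 0.0203 over probes), against 0.11 for the brightest one. CDT1, which loads the helicase with CDC6, gave -0.35 ± 0.22, CDC6 -0.28 ± 0.25, and CDC45, which activates it with GINS2, -0.19 ± 0.19. TYMS, the thymidylate synthase, gave 0.28 ± 0.17, GINS2 0.11 ± 0.20, PCNA, the sliding clamp, 0.02 ± 0.18, and RRM2, the small reductase subunit, -0.16 ± 0.24.

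**Figure D4:**
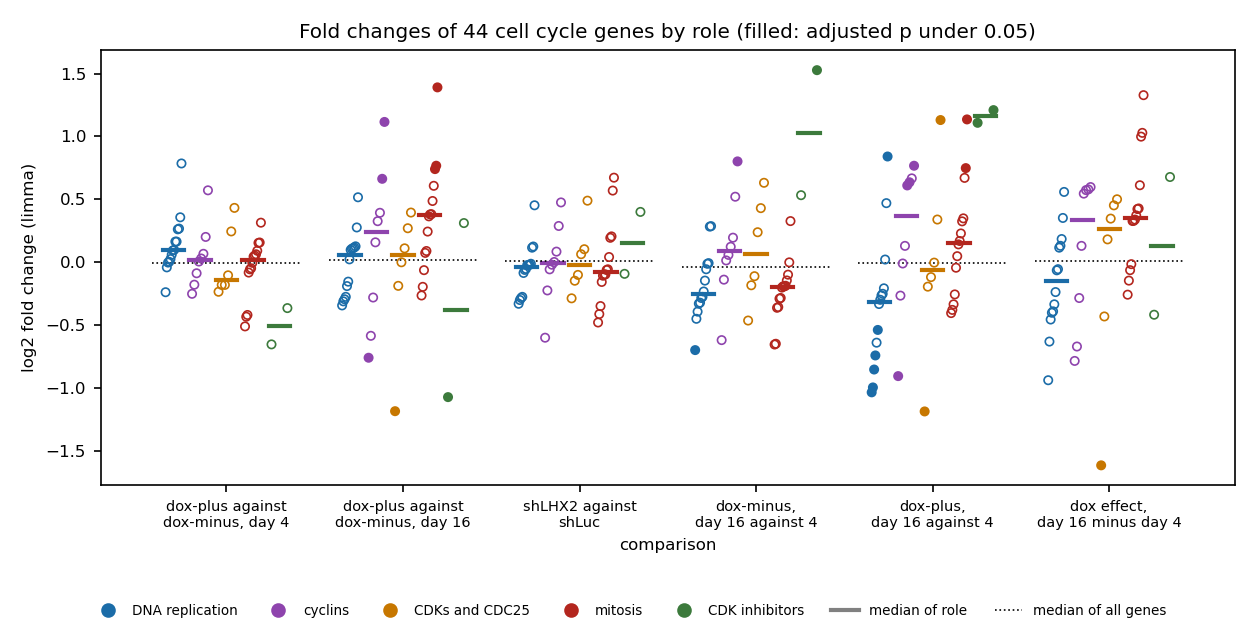
Log2 fold changes of 44 genes in 6 comparisons, coloured by role, with filled points at an adjusted p under 0.05; bars are role medians and dotted lines the median of all genes. At day 16 the mitotic median is 0.37 and the replication median 0.06 (-2e-04 under median scaling), and with time in dox-plus cells the replication median is -0.32.

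Other genes of mitosis and replication that were called at day 16 all rose. Of 55 other mitotic genes, 5 rose and 0 fell, 45 had a positive value, and the median was 0.41. They included the condensin subunits SMC4 (1.09 ± 0.30) and SMC2 (1.01 ± 0.23), the kinetochore motor CENPE (0.77 ± 0.23) and the spindle kinesin KIF15 (0.76 ± 0.19). Of 48 other replication genes, 3 rose and 0 fell, 34 had a positive value, and the median was 0.21. The 3 that rose were the origin-firing kinase CDC7 (0.96 ± 0.25), the fork protein TIMELESS (0.92 ± 0.23) and the DNA polymerase subunit POLA1 (0.76 ± 0.22). These shares, 9.09% and 6.25%, were below the 13.7% of all genes. Many of these calls were lost in some of the 16 alternatives: CENPE in 8, SMC4 and POLA1 in 7 each, KIF15 in 5, SMC2 and TIMELESS in 4 each and CDC7 in 3. Of 17 E2F and pocket-protein genes, 2 rose and 1 fell, which is 17.6% beside 13.7% of all genes. TFDP2, a DNA-binding partner of E2F, rose by 1.2 ± 0.20 and E2F7, a repressor, by 0.92 ± 0.26. LIN37, a MuvB subunit, fell by 0.81 ± 0.23. LIN37 was detected on 7 of the 12 arrays and stayed near the detection limit, from 5.36 to 6.83. TFDP2 kept its call in 16 of 16 alternatives, while E2F7 lost it in 7 of 16 and LIN37 in 8 of 15.

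The widest change among all CDK inhibitors was that of CDKN2B, which encodes p15, an inhibitor of CDK4 and CDK6. It read 5.63 and 5.65 in dox-plus cells at day 16, against 9.50 and 9.26 in dox-minus cells, a difference of -3.74 ± 0.23 (limma adjusted p = 1.01e-06). It was high on the dox-minus day 16 arrays and low on the 10 others. It was the only 1 of 5 other inhibitors tested that passed, beside 13.7% of all genes. Of 15 p53-linked arrest genes, 1 rose and 3 fell, which is 26.7% beside 13.7% of all genes (6.08% higher, 7.64% lower). The share of so small a list is imprecise and was not tested. BTG2, an antiproliferative factor, rose by 1.39 ± 0.32, while GADD45B (-1.37 ± 0.25), SESN2 (-1.29 ± 0.22) and PHLDA3 (-0.99 ± 0.22) fell. BTG2 lost its call in 2 and PHLDA3 in 4 of 16 alternatives.

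Markers of other cell types moved in the same comparison. Of 13 mesenchyme markers, 11 fell and 0 rose in dox-plus cells, and their mean level was 8.24 and 8.29 in dox-plus cells, against 10.4 to 10.5 in dox-minus cells. COL6A3, a collagen of connective tissue, fell by 4.28 ± 0.20. Of 9 neural progenitor markers, 6 rose and 1 fell, with a mean level of 11.4 on both dox-plus arrays and 10.1 to 10.2 on the dox-minus arrays. Of 9 pluripotency markers, 1 rose and 2 fell, and of 8 neuron markers, 3 rose and 2 fell. Of all genes, 6.08% rose and 7.64% fell. The pluripotency marker that rose was SOX2, which is also in the neural progenitor list, and NANOG and POU5F1 fell. The part of the cell types in the cell cycle values was not tested.

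At day 4, soon after the drug, 0 of 44 genes were called in dox-plus against dox-minus cells, beside 1.93% of all genes (1.34% higher, 0.594% lower; limma). At an unadjusted p under 0.05 there were 3 genes, 6.82% of the set beside 13.9% of all genes. CDKN1A read 11.27 and 11.43 in dox-plus cells, against 11.97 and 12.04 in dox-minus cells. The groups did not overlap, and the difference was -0.66 ± 0.19 (limma adjusted p = 0.123). RRM2 read 8.73 and 9.01 in dox-plus cells, against 7.76 and 8.41 in dox-minus cells, and the 2 dox-minus arrays lay far apart. Its difference was 0.78 ± 0.24 (limma adjusted p = 0.133), and it passed under median scaling (1.02, limma adjusted p = 0.0368) and on the unnormalized values (1.0, limma adjusted p = 0.012), which also move the median of all genes up. CDK6 read 9.39 and 9.19 in dox-plus cells, against 8.81 and 8.92 in dox-minus cells. Both dox-plus arrays lay above both dox-minus arrays, the opposite order to day 16, with a difference of 0.43 ± 0.18 (limma adjusted p = 0.293).

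Role medians at day 4 were 0.09 for replication, with 11 of 14 values positive, 0.02 for cyclins, -0.14 for kinases and phosphatases and 0.02 for mitosis. The kinase and phosphatase median changed sign under median scaling (0.06) and on unnormalized values (0.17), while it stayed below the median of all genes. CCNE2 stood at least 1.21-fold above dox-minus cells in dox-plus cells, since it was detected on neither dox-minus array, and it did not pass (limma adjusted p = 0.398). The lowest mitotic values were those of MKI67 (-0.51 ± 0.26), CENPA (-0.44 ± 0.24) and TPX2 (-0.42 ± 0.25). In the other cell cycle lists, the only call at day 4 was ZMAT3, a p53 target that binds RNA, which rose by 1.49 ± 0.34 (limma adjusted p = 0.0488) and lost its call in 10 of 16 alternatives.

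With LHX2 knocked down during neural induction, 0 of 44 genes were called, beside 0.543% of all genes (0.249% higher, 0.294% lower; limma). At an unadjusted p under 0.05 there were 4 genes, 9.09% of the set beside 10.2% of all genes. CDK6 read 9.53 and 9.68 in shLHX2 cells, against 9.13 and 9.11 in shLuc cells. The groups did not overlap, and the difference was 0.49 ± 0.18 (limma adjusted p = 0.345). CCND3 read 10.12 and 10.17 in shLHX2 cells, against 9.55 and 9.80 in shLuc cells, again without overlap, and differed by 0.47 ± 0.18 (limma adjusted p = 0.354). TPX2 read 12.12 and 11.46 in shLHX2 cells, against 11.19 and 11.25 in shLuc cells. One shLHX2 array stood far above the rest of the series, and the difference was 0.57 ± 0.25 (limma adjusted p = 0.465).

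The genes called with a positive value in the dox comparison at day 16 did not pass in the knockdown. Their values were -0.41 ± 0.32 for TOP2A, -0.48 ± 0.21 for CENPF, -0.35 ± 0.18 for KIF11, -0.23 ± 0.19 for CCNB1 and -0.60 ± 0.28 for CCNE2, all negative, with limma adjusted p from 0.473 to 0.757. The shLHX2 replicates lay apart in most of them: TOP2A read 11.58 and 10.72, against 11.62 and 11.52 in shLuc cells, and CENPF 10.25 and 9.73, against 10.40 and 10.54. CCNE2 was detected on only 1 of the 2 shLHX2 arrays. Over all 44 genes 28 had a negative value in the knockdown, and 28 of the 44 changed sign in some alternative. CDKN1A gave 0.40 ± 0.19 and CDT1 0.45 ± 0.22 (limma adjusted p = 0.522 for each). Role medians were -0.04 for replication and -0.08 for mitosis. Of 55 other mitotic genes, 38 had a negative value and 0 were called (limma; 4 at an unadjusted p under 0.05). Of 48 other replication genes, 32 had a negative value and 0 were called (limma; 1 at an unadjusted p under 0.05).

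With time, CDKN1A rose in dox-plus and in dox-minus cells, and 5 of 14 replication genes fell in dox-plus cells, against 1 of 14 in dox-minus cells. In dox-plus cells, day 16 against day 4, 16 of 44 genes were called, 9 higher and 7 lower, which is 36.4% beside 36.6% of all genes (17.8% higher and 18.9% lower), and so near the rate of all genes. The split depended on the scaling: it was 3 higher and 9 lower under median scaling, and 3 higher and 13 lower on unnormalized values. The 3 higher calls that were left are CDKN1A, CDKN1B and CDK2 in both. In dox-minus cells 3 of 44 were called, 2 higher and 1 lower, which is 6.82% beside 18.0% of all genes (9.70% higher and 8.35% lower). Both counts moved when 1 array was left out: in dox-plus cells to 7 without day 4 replicate 1 or without day 16 replicate 1, and in dox-minus cells to 1 without day 4 replicate 2 and to 5 without day 16 replicate 1. Markers of cell types moved with time too. Of 9 pluripotency markers, 1 rose and 6 fell in dox-plus cells, and 0 rose and 7 fell in dox-minus cells. The marker that rose was SOX2, which is also in the neural progenitor list. Of 13 mesenchyme markers, 8 rose and 3 fell in dox-plus cells, and 11 rose and 2 fell in dox-minus cells. TWIST1, a mesenchymal transcription factor, was 1 of the 3 that fell in dox-plus cells (-3.56 ± 0.20). LUM, another of the 13, went the other way. It was detected on 0 dox-plus arrays at day 4 and read 9.245 and 8.55 at day 16. Of 9 neural progenitor markers, 7 rose and 2 fell in dox-plus cells, and 5 rose and 0 fell in dox-minus cells. HES5, a Notch target of neural progenitors, rose by 7.3 ± 0.22 in dox-plus and 4.98 ± 0.22 in dox-minus cells. Of 8 neuron markers, 4 rose and 3 fell in dox-plus cells, and 1 rose and 3 fell in dox-minus cells. The part of these cell types in the changes with time was not tested.

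CDKN1A read 12.43 and 12.49 in dox-plus cells at day 16, against 11.27 and 11.43 at day 4. That rise was 1.11 ± 0.19 (limma adjusted p = 0.000941). In dox-minus cells it read 13.51 and 13.55 at day 16, against 11.97 and 12.04 at day 4, a rise of 1.53 ± 0.19 (limma adjusted p = 0.000168). The dox-plus arrays were thus lower than the dox-minus arrays of the same day at both times. CDKN1B in dox-plus cells read 9.79 and 9.40 at day 16, against 8.38 and 8.39 at day 4, a rise of 1.21 ± 0.23 (limma adjusted p = 0.00168). Its other probe rose by 1.77 (adjusted p = 0.00129 over probes). In dox-minus cells CDKN1B gave 0.53 ± 0.23 (limma adjusted p = 0.137).

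Among the replication genes, 5 fell and 1 rose in dox-plus cells, and 1 fell in dox-minus cells. MCM5, a helicase subunit, fell in both. In dox-plus cells it read 10.18 and 10.26 at day 16, against 11.50 and 11.02 at day 4 (-1.04 ± 0.22, limma adjusted p = 0.00322). In dox-minus cells it read 10.79 and 10.28 at day 16, against 11.25 and 11.21 at day 4. That change, -0.70 ± 0.22 (limma adjusted p = 0.0438), lost its call in 9 of 16 alternatives. RRM2 in dox-plus cells read 7.99 and 7.75 at day 16, against 8.73 and 9.01 at day 4 (-1.0 ± 0.24, limma adjusted p = 0.00649). Its values in dox-minus cells overlapped between the days. CDT1 in dox-plus cells read 9.52 and 9.93 at day 16, against 10.68 and 10.48 at day 4 (-0.86 ± 0.22, limma adjusted p = 0.00966). That call was lost without day 16 replicate 1 (limma adjusted p = 0.104) and without day 4 replicate 1 (limma adjusted p = 0.0621), and that of RRM2 without day 16 replicate 2 (limma adjusted p = 0.0503).

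CDC45 (-0.74 ± 0.19) and MCM4 (-0.54 ± 0.17) also fell in dox-plus cells. CDC45 lost its call in 2 of 16 alternatives, without day 4 replicate 1 and without day 16 replicate 1, and MCM4 in 6 of 16, among them all 4 that leave out an array. RRM1 went the other way. It read 12.59 and 12.48 at day 16, against 11.62 and 11.77 at day 4, a rise of 0.84 ± 0.18 (limma adjusted p = 0.00341) that lost its call under median scaling (0.53, limma adjusted p = 0.0599) and on unnormalized values (0.47, limma adjusted p = 0.0587). Replication medians were -0.32 in dox-plus cells (11 of 14 negative) and -0.26 in dox-minus cells (12 of 14 negative), and both medians were negative under every scaling tried. The remaining replication genes in dox-plus cells ran from -0.64 (CDC6) to 0.47 (TYMS) and did not pass.

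Cyclins and kinases with time also differed by member. In dox-plus cells CCNE1 read 9.02 and 9.20 at day 16, against 10.28 and 9.76 at day 4, a fall with a log2 fold change of -0.91 ± 0.23 (limma adjusted p = 0.00985). The call was lost without day 4 replicate 1 and without day 16 replicate 1. All 4 of its kept probes gave negative values there, from -0.98 to -0.19. CDK2, the kinase of E and A cyclins, read 10.67 and 10.34 at day 16, against 9.11 and 9.64 at day 4, a rise of 1.13 ± 0.25 (limma adjusted p = 0.00385), and its other probe rose by 0.92. CCNB1 (0.61 ± 0.19), CCNB2 (0.63 ± 0.18) and CCND2 (0.77 ± 0.20) also rose in dox-plus cells. All 3 of these calls were lost under median scaling (limma adjusted p = 0.211 for CCNB1, 0.212 for CCNB2 and 0.0852 for CCND2), on unnormalized values, without day 4 replicate 1 and without day 16 replicate 1. In dox-minus cells CCND3 read 10.72 and 10.75 at day 16, against 9.97 and 9.90 at day 4, and was the only cyclin called there (0.80 ± 0.18, limma adjusted p = 0.0076). Its call was lost in a fit of these groups alone and without day 4 replicate 2.

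CDK6 fell with time in dox-plus cells, to 8.12 and 8.09 at day 16, against 9.39 and 9.19 at day 4 (-1.19 ± 0.18, limma adjusted p = 0.00032). In dox-minus cells it gave 0.43 ± 0.18 (limma adjusted p = 0.122). Among mitotic genes in dox-plus cells TOP2A read 12.17 and 11.74 at day 16, against 10.67 and 10.97 at day 4, a rise of 1.14 ± 0.32 (limma adjusted p = 0.016) that was lost under median scaling (0.83, limma adjusted p = 0.0583), on unnormalized values (0.77, limma adjusted p = 0.0626), without day 4 replicate 1 and without day 16 replicate 1 (limma adjusted p = 0.126 in the last). KIF20A rose by 0.75 ± 0.27 (limma adjusted p = 0.0493) and lost its call in 9 of 16 alternatives, median scaling (0.48, limma adjusted p = 0.144) and unnormalized values among them. In dox-minus cells limma called 0 of 14 mitotic genes, beside 18.0% of all genes, and 2 of the 14 had an unadjusted p under 0.05. A negative value was found in 13 of 14, with a median of -0.20. The nearest to a call there was CENPF (-0.66 ± 0.21, limma adjusted p = 0.0518). The mitotic median in dox-plus cells was 0.15, and it changed sign under median scaling (-0.02) and on unnormalized values (-0.07).

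**Figure D5:**
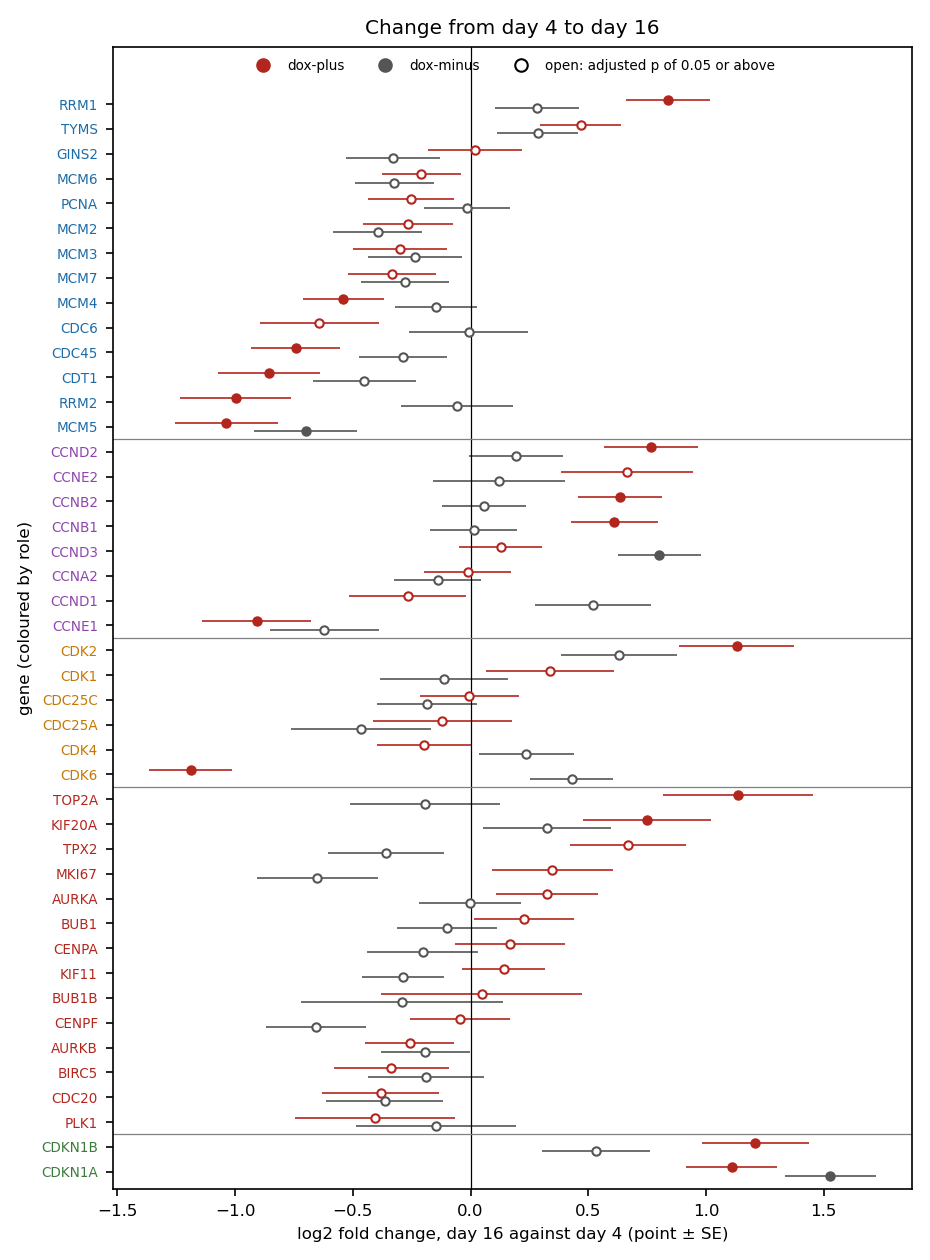
Log2 fold change of 44 genes at day 16 against day 4 (points ± SE) in dox-plus (red) and dox-minus (grey) cells, by role; open points did not pass. In dox-plus cells 9 genes lie above and 7 below zero past the threshold (3 and 9 under median scaling, 3 and 13 on unnormalized values), and CDK6 is below zero in dox-plus cells (-1.19) and above it in dox-minus cells (0.43).

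The test of whether the dox effect itself changed between the days passed for 1 of 44 genes, beside 7.85% of all genes (3.17% with a positive and 4.68% with a negative difference). That gene was CDK6, whose difference was -1.62 ± 0.25 (limma adjusted p = 0.00218) and kept its call in 20 of 20 alternatives. Its effect was -1.19 ± 0.18 at day 16 and 0.43 ± 0.18 at day 4. For TOP2A the difference was 1.33 ± 0.45 and for TPX2 1.03 ± 0.35 (limma adjusted p = 0.102 for each), for MKI67 1.0 ± 0.36 (limma adjusted p = 0.123) and for RRM2 -0.94 ± 0.33 (limma adjusted p = 0.117). The mitotic median was 0.35, with 10 of 14 values positive, and the replication median -0.15, with 9 of 14 negative. For these genes other than CDK6, a call at day 16 and none at day 4 is therefore not shown to be a difference between the days. The same test compares the changes with time, so calls made in dox-plus and not in dox-minus cells are likewise not shown to differ, apart from CDK6.

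Other cell cycle genes changed with time as well. In dox-plus cells CCNG2, an atypical cyclin of arrested cells, rose by 2.71 ± 0.22, BTG2 by 2.97 ± 0.32 and CDKN1C, which encodes the inhibitor p57, by 1.06 ± 0.31, while PKMYT1, an inhibitory kinase of CDK1 (-1.79 ± 0.33), CHAF1A, a histone chaperone of replication (-1.42 ± 0.33), and SKA3, a kinetochore protein (-1.26 ± 0.20), fell. In dox-minus cells CDKN2B rose by 3.23 ± 0.23, CCNG2 by 2.19 ± 0.22 and CDKN1C by 1.06 ± 0.31, while POLA1 (-1.05 ± 0.22), ORC1, a subunit of the origin recognition complex (-0.88 ± 0.18), SKA3 (-1.16 ± 0.20) and E2F1 (-0.93 ± 0.26) fell. E2F1 lost its call in 8 of 16 alternatives, CDKN1C in 4 of 16 in each of dox-plus and dox-minus cells, CHAF1A in 2 and ORC1 in 1. Of 48 other replication genes 3 rose and 9 fell in dox-plus cells, and 0 rose and 4 fell in dox-minus cells. Of 55 other mitotic genes 10 rose and 1 fell in dox-plus cells, and 1 rose and 5 fell in dox-minus cells. In dox-plus cells 25% of the replication and 20% of the mitotic list were called, beside 36.6% of all genes (17.8% higher, 18.9% lower). In dox-minus cells the shares were 8.33% and 10.9%, beside 18.0% of all genes (9.70% higher, 8.35% lower). Neither list was thus called more often than all genes. Counts of these wider lists under other scalings were not taken.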

How the data were processed

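The deposited file of each of the 12 arrays holds, per the file headers, the mean bead intensity of every probe with its detection p-value. Whether a background had been subtracted is not stated. The series table the authors deposited holds the same intensity values for 10 of 12 arrays, and its 2 shLuc columns hold each other's values, so the per-array files were used. Signals were background-corrected (limma 3.58.1, R 4.3.3; normexp fitted with the detection p-values and offset 16), then quantile normalized between arrays and log2 transformed. A filter kept 21526 probes whose detection p was below 0.01 on both arrays of some group, and the probe of highest mean stood for each of 15650 genes. 1 limma fit held 12 arrays with a mean per group (6 residual and 5.93 prior degrees of freedom). The fit was tested on simulated data. A fold change marked "at least" sets the brighter group against the lowest detected signal of each array where the gene was not detected.

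The 45 genes and all lists were chosen with earlier results of these data known. Named were all members, with values per array for those called in a dox or knockdown comparison, the 10 widest called in each time comparison, the 3 of smallest p where none was called, and up to 4 called genes of each wider list. Of 15 genes with several kept probes, 10 had probes of 1 sign at day 16; dimmer probes are quoted where they change a reading. The alternatives were other settings of background, offset, scaling, probe filter and rule, spread, array weights, replicate block, threshold, samples in the fit and leaving out each array. Same-numbered arrays deviated with correlations of 0.33 (day 4), -0.58 (day 16) and 0.073 (knockdown), so the numbers were not used as pairs. Motifs were searched with Python.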

Additional observations from a re-analysis of the deposited data

Results flagged for a closer look

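For 9 genes of the cell cycle lists the dox effect differed between the days by limma's test of the difference (Benjamini-Hochberg adjustment over 15650 genes), given here as the effect at day 16 minus that at day 4 on the log2 scale. Called were 1 of 44 members (2.27%), 2 of 48 other replication genes (4.17%) and 1 of 55 other mitotic genes (1.82%). These shares were below the 7.85% of all genes. In the smaller lists, 1 of 17 E2F and pocket-protein genes and 0 of 20 other cyclin and CDK genes were called. So were 1 of 5 other CDK inhibitors and 3 of 15 p53-linked arrest genes. CDK6 differed by -1.62 ± 0.25 (adjusted p = 0.00218) and was the only 1 of the 44 genes tested. CDKN2B differed by -3.79 ± 0.33 (adjusted p = 2.67e-05), with an effect of -3.74 at day 16 and 0.05 at day 4. BTG2 differed by 2.67 ± 0.45 (adjusted p = 0.00386), with effects of 1.39 at day 16 and -1.27 at day 4. TFDP2 differed by 1.41 ± 0.28 (adjusted p = 0.00908), POLA1 by 1.5 ± 0.30 (adjusted p = 0.0108), SESN2 by -1.40 ± 0.31 (adjusted p = 0.0164), TIMELESS by 1.34 ± 0.32 (adjusted p = 0.0248), GADD45B by -1.35 ± 0.35 (adjusted p = 0.0354) and CENPW by 1.15 ± 0.30 (adjusted p = 0.0398). Both the polymerase subunit POLA1 and the fork protein TIMELESS were below dox-minus cells at day 4 (-0.74 and -0.42, neither called) and above them at day 16 (0.76 and 0.92). Of the alternatives in which each difference was fitted, the call was lost in 12 of 20 for CENPW, 9 of 20 for GADD45B, 7 of 20 for TIMELESS, 4 of 20 for SESN2 and 2 of 20 for TFDP2, and it was kept in 20 of 20 for CDK6, BTG2 and POLA1 and in 19 of 19 for CDKN2B. No cause was tested.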

How the results depend on the processing

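No called gene of the cell cycle lists named in the text changed its direction. The markers of cell types and LHX2 were not followed through the alternatives. Some medians did change sign. Under median scaling and on unnormalized values the mitotic median with time in dox-plus cells (0.15) became -0.02 and -0.07. Likewise the day 4 median of kinases and phosphatases (-0.14) became 0.06 and 0.17. The day 16 replication median (0.06) became -2e-04 under median scaling. Of 451 values of single named members under an alternative, 401 stayed on their side of the threshold, 48 lost a call and 2 gained one. The 451 include the members named at day 4 and in the knockdown, which were not called and mostly stayed by not passing. The count at day 4 was 1 (RRM2) under median scaling and on unnormalized values. At day 16 it was 4 in a fit of the groups compared and 2 at an adjusted p under 0.01. With time in dox-minus cells it was 1 in a fit of the groups compared and 5 at an adjusted p under 0.1. With time in dox-plus cells it was 10 at an adjusted p under 0.01, and for the change in dox effect 3 on unnormalized values. Leaving out 1 array gave 0 to 0 at day 4, 2 to 8 at day 16, 0 to 0 in the knockdown, 7 to 16 with time in dox-plus cells and 1 to 5 in dox-minus cells, and 1 to 3 for the difference, which was 2 without dox-plus day 4 replicate 2 and 3 without dox-minus day 16 replicate 2. The replicate block gave 7 calls at day 16 and moved no count by over 1.5 times. The labels do not say what a number shares. Among all genes called, the share higher moved with median scaling and with unnormalized values: at day 4 69.2% became 87.1% and 93.7%, in the knockdown 45.9% became 28.6% and 16.3%, in dox-plus cells with time 48.5% became 38.9% (32.1% unnormalized), for the difference 40.4% became 28.3% and 17%, and in dox-minus cells with time 53.8% became 70.4% on unnormalized values. The cause of these shifts was not tested. Where 1 array is left out, its group has 1 array, taken to vary as the rest do.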

Other observations

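Levels of CDKN1A in the knockdown arm, 10.28 and 10.62 in shLHX2 and 9.88 and 10.22 in shLuc cells, were below every array of the doxycycline arm; the arms differ in protocol and time, and no test was made between them. Pluripotency markers in the knockdown arm had mean levels of 11.9 to 12.1 in shLHX2 and 11.8 to 11.9 in shLuc cells, beside 11.7 to 11.9 in the day 4 groups and 10.5 to 10.7 in the day 16 groups.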
